A study of Rattus norvegicus and Mus musculus with 10 samples.

Results

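Tissue macrophages at the borders of the central nervous system (CNS) carry a set of uptake receptors and companion transcripts. Described here are the border macrophage scavenger receptor genes Mrc1, Cd163, Lyve1, Stab1, Folr2 and Siglec1, with F13a1, Pf4 and Cbr2, which mark the same cells and encode an enzyme subunit, a chemokine and a reductase. They were taken by symbol from the gene lists of the deposited tables. In rat, 8 of the 9 were among 32883 listed genes, since Cbr2 has no entry there, and in mouse all 9 were among 31053.

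The rat libraries were single-cell RNA libraries of leukocytes from naive Lewis rats, 25 animals in the study: dura, pia (the subdural meninges in the labels), choroid plexus, cerebrospinal fluid (CSF), blood and CNS tissue. From dura, pia, choroid plexus and CNS, leukocytes were sorted by CD45 after an antibody to CD45 had been injected into the circulation, and cells marked by the injected antibody were left out as lying inside vessels. CSF cells were not sorted, and blood cells were mononuclear cells from a density gradient. The mouse libraries were skull dura of C57BL/6 animals, with 3 mice pooled at peak disease of EAE (experimental autoimmune encephalomyelitis, an induced inflammation of the CNS) and 4 unimmunized mice pooled, called naive here.

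Every group was 1 pooled library, so the spread between animals is unknown and no test was possible. A level is given as CPM: the unique molecular identifiers (UMIs, one per captured RNA molecule) of a gene summed over the cells of one of the authors' clusters, per 1000000 UMIs of those cells. Intervals are 95% intervals that cover counting error only. A gene was called higher or lower past a 2-fold ratio with at least 20 UMIs over both sides. Where one side was at 0, it was set to 3 UMIs for the fold, which is given with the lower limit of its interval. CPM takes no account of gene length, so levels are compared between groups and not between genes.

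Annotated rat libraries held 2272 to 4953 cells and 3486564 to 10083423 UMIs, with medians of 981 UMIs per cell in pia to 2704 in CNS. The EAE library held 4579 cells with a median of 11743 UMIs, and the naive library 2776 cells with a median of 4163.5. The lowest cell had 5722 UMIs in EAE and 503 in naive dura. Rat library pairs shared 8 to 36 barcode sequences and the mouse pair shared 7.

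Border macrophages sit in the dura, along the pia and vessels, and in the stroma of the choroid plexus, outside the tissue that microglia occupy. They take up material from blood, CSF and interstitial fluid through scavenger and lectin receptors, and Mrc1, Cd163 and Lyve1 are widely used to tell them from microglia. In many tissues macrophages rich in Lyve1 and Folr2 are set apart from macrophages rich in MHC class II.

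Promoters are shown because all 8 rat members were higher in dura and in pia than in CNS within cluster myeloid 2, described next. RefSeq windows from 250 bases before to 50 bases after the start, on build GRCr8, were at hand for 6 of the 8 rat members, with Siglec1 and Pf4 not matched. The 4 shown are 2 with a match and 2 without one to GAGGAA, a core read by the myeloid factor PU.1. Capitals mark that core or its reverse complement TTCCTC, and the letters run 5′ to 3′ on the gene's strand. The windows are Mrc1 at chr17:82157475-82157774 (plus strand), F13a1 at chr17:28020947-28021246 (plus strand), Cd163 at chr4:158770524-158770823 (plus strand) and Lyve1 at chr1:174410928-174411227 (minus strand).
Mrc1: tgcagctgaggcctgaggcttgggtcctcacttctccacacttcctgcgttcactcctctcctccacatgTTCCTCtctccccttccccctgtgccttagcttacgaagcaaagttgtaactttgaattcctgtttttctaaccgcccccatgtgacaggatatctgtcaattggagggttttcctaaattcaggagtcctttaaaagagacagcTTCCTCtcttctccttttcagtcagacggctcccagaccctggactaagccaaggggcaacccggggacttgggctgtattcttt
F13a1: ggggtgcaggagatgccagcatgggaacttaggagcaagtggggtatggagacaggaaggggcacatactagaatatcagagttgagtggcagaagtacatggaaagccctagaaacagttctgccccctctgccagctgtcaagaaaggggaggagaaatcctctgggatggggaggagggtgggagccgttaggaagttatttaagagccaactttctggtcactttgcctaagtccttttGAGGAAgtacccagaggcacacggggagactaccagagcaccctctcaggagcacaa
Cd163: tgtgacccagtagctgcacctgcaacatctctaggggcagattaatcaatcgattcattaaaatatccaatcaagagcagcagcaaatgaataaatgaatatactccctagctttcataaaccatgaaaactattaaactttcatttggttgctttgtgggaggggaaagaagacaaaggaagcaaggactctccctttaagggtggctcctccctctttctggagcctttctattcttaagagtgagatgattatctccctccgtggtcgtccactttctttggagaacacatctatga
Lyve1: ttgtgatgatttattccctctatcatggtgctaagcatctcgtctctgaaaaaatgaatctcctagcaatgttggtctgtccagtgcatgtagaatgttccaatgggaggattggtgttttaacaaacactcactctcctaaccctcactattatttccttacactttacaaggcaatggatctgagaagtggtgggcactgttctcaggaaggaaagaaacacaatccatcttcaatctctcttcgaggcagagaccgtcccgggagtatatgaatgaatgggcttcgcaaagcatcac

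GAGGAA, on either strand, was in 3 of the 6 windows (Mrc1, F13a1 and Stab1) and in 27.6% of 33469 rat promoter windows of the same length. The Mrc1 window held it on the reverse strand at positions -180 and -35 from the start, and the F13a1 window held it at -7. TGCTGAC, the core of the element read by MAF factors, was in 0 of the 6 windows and in 4.44% of all of them. TATAAA was in 0 of 6 and in 14.2%. A match or its absence describes letters in these windows and nothing about binding.

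In rat, the members were read first in the authors' cluster myeloid 2, whose cells came from 4 tissues: 1033 in dura, 1515 in pia, 409 in choroid plexus and 332 in CNS. Within this cluster 8 of 8 members were higher in dura than in CNS and 8 of 8 were higher in pia than in CNS, where 15.2% of the 7301 genes measured were higher in dura (21.5% lower) and 15.2% of 6604 were higher in pia (23.9% lower). In choroid plexus 5 of the 6 members with enough UMIs were higher than in CNS (11.8% of all genes measured) and 1, Lyve1, was lower (27.6%). These 3 comparisons share the CNS cells. The members' median log2 ratio was 5.60 for dura, 4.55 for pia and 3.35 for choroid plexus over CNS, beside medians over all genes measured of -0.22, -0.31 and -0.41.

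The cells named myeloid 2 in the CNS library differ from their namesakes in their markers. At least 2 UMIs of the 8 microglia markers were found in 331 of 332 of them, against 304 of 1033 in dura, 109 of 1515 in pia and 136 of 409 in choroid plexus. The summed level of these markers was 484 CPM in dura, 402 CPM in pia and 1268 CPM in choroid plexus, against 10910 CPM in CNS, with Siglech at 0 in dura, pia, choroid plexus and CNS. Without cells that carry microglia markers 1 CNS cell was left, so this could not be set aside, and its part in the ratios over CNS was not tested. A general macrophage list was detected whole in each tissue, at 7931 to 13141 CPM.

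Mrc1 encodes the mannose receptor (CD206), a C-type lectin that takes up mannosylated glycoproteins. It stood at 1570 CPM in dura (95% interval 1522 to 1620), 1539 CPM in pia (1478 to 1602) and 264 CPM in choroid plexus (225 to 309), against 8.86 CPM in CNS (3.56 to 18.3). Dura and pia could not be told apart at a ratio of 1.02 (0.970 to 1.07), choroid plexus was between, and the CNS level came from 7 UMIs in 3 cells. The dura ratio over CNS was 177-fold (85.9 to 441), the pia ratio 174-fold (84.1 to 432) and the choroid plexus ratio 29.8-fold (14.2 to 75.4).

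Cd163 encodes the receptor that clears haemoglobin bound to haptoglobin. It had 745 CPM in dura (712 to 779), 1064 CPM in pia (1014 to 1117), 125 CPM in choroid plexus (98.3 to 156) and 0 UMIs in CNS, which allows up to 4.67 CPM at the upper limit of its interval. The order was pia, dura, choroid plexus and CNS, and each neighbour differed beyond its counting interval. For the folds over CNS, the CNS side was raised from 0 as described above. Dura was 196-fold higher than CNS (lower limit 159), pia 280-fold (lower limit 228) and choroid plexus 32.9-fold (lower limit 26.1).

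Lyve1 encodes a hyaluronan receptor shared by lymphatic endothelium and some macrophages. Its order differed from that of the other members, with 422 CPM in dura (397 to 449), 545 CPM in pia (509 to 583) and 77.2 CPM in choroid plexus (56.7 to 103), against 187 CPM in CNS (158 to 220). Dura was 2.25-fold (1.90 to 2.70) and pia 2.91-fold (2.44 to 3.49) higher than CNS, while choroid plexus was 2.43-fold lower than CNS (1.74 to 3.45). With TMM scaling (trimmed mean of M values) the log2 ratio of choroid plexus over CNS was -0.98 and no longer past 2-fold. Lymphatic endothelium markers summed to 13.1 CPM in dura with Prox1, Flt4 and Mmrn1 at 0, and to 1.64 to 5.06 CPM in the other tissues of this cluster.

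Folr2 encodes a folate receptor anchored in the membrane. It stood at 1386 CPM in dura (1341 to 1433), 802 CPM in pia (758 to 848) and 235 CPM in choroid plexus (198 to 277), against 82.3 CPM in CNS (63.5 to 105). All neighbours in that order differed beyond their counting intervals. The ratio over CNS was 16.8-fold (13.2 to 21.9) for dura, 9.74-fold (7.59 to 12.7) for pia and 2.85-fold (2.11 to 3.89) for choroid plexus.

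Stab1, a large scavenger receptor that takes up modified lipoproteins and other ligands, and Siglec1 (CD169), a lectin that binds sialic acid, were sparse. Stab1 had 58 UMIs in dura, 28 in pia and 6 in choroid plexus, against 1 in CNS, or 23.0 CPM in dura, 18.0 CPM in pia, 9.85 CPM in choroid plexus and 1.27 CPM in CNS. Siglec1 had 108 UMIs in dura, 26 in pia and 14 in choroid plexus, against 1 in CNS, or 42.9 CPM in dura, 16.7 CPM in pia, 23.0 CPM in choroid plexus and 1.27 CPM in CNS. Stab1 was 18.2-fold (3.14 to 731) and Siglec1 33.9-fold (5.95 to 1350) higher in dura than in CNS. Stab1 did not differ beyond its counting interval between any neighbours in the order, and Siglec1 did so from dura to choroid plexus and from pia to CNS.

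F13a1 encodes the A subunit of coagulation factor XIII, the transglutaminase that crosslinks fibrin, which tissue macrophages also make. It had 584 CPM in dura (554 to 614), 572 CPM in pia (535 to 611) and 31.2 CPM in choroid plexus (18.8 to 48.7), against 7.60 CPM in CNS (2.79 to 16.5). Dura and pia could not be told apart (1.02, 0.939 to 1.11), and all 6 UMIs in CNS came from 1 cell. Dura was 76.8-fold (35.2 to 210), pia 75.2-fold (34.4 to 206) and choroid plexus 4.11-fold (1.58 to 12.6) higher than CNS.

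Pf4 encodes platelet factor 4 (CXCL4), a chemokine stored in platelets that macrophages also transcribe. It had 4487 CPM in dura (4404 to 4570), 2497 CPM in pia (2419 to 2577) and 1636 CPM in choroid plexus (1536 to 1741), against 64.6 CPM in CNS (48.1 to 84.9). Each step down that order exceeded its counting interval. Dura was 69.5-fold (52.8 to 93.4), pia 38.7-fold (29.3 to 52.0) and choroid plexus 25.3-fold (19.1 to 34.3) higher than CNS. The platelet list summed to 13.5 CPM in dura with 4 of 7 genes detected and Ppbp and Gp1ba among those at 0, so platelet transcripts were near 0 beside Pf4.

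**Figure D1:**
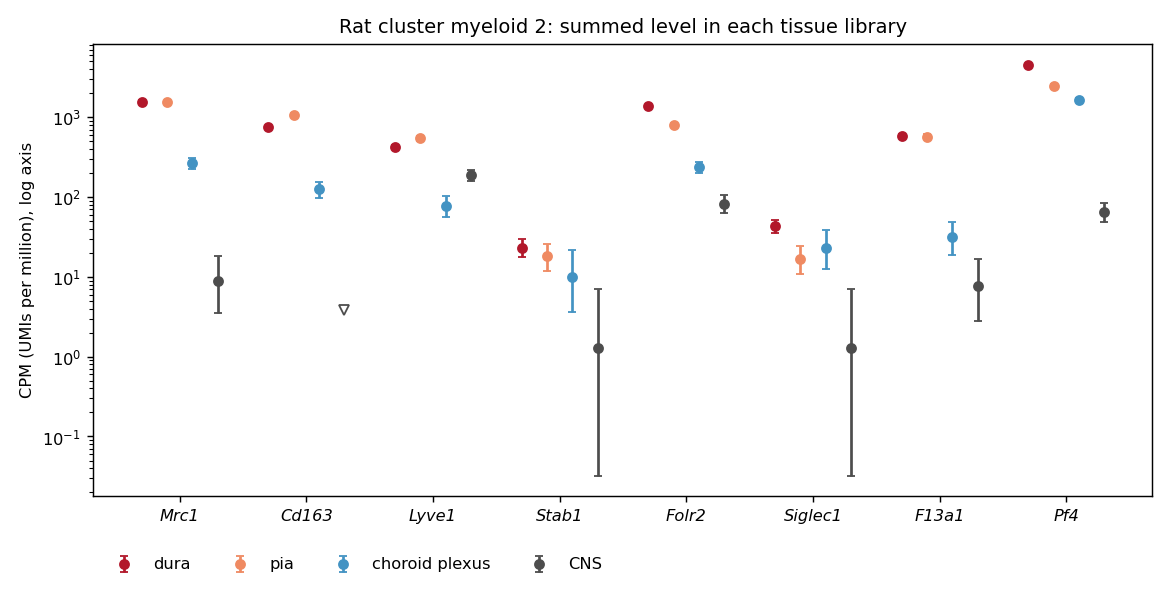
Levels of the 8 rat members in cells of cluster myeloid 2, in CPM on a log axis, with 1 point per library for dura, pia, choroid plexus and CNS and 95% counting intervals. Open triangles mark libraries at 0, drawn at the level of 3 UMIs. Dura and pia points lie together at the top for Mrc1 and F13a1, CNS lies at the bottom for all members but Lyve1, where choroid plexus (77.2 CPM) lies below CNS (187 CPM).

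Between dura and pia the members differed little: 1 of 8 was higher in dura (6.33% of 7554 genes measured) and 0 were lower (6.46%). That member was Siglec1, 2.57-fold higher in dura (1.66 to 4.10). Pf4 was 1.80-fold (1.73 to 1.86) and Folr2 1.73-fold (1.62 to 1.85) higher in dura, both within 2-fold. Cd163 (ratio of dura over pia 0.700, 0.655 to 0.748) and Lyve1 (0.775, 0.707 to 0.849) were the 2 members with a ratio under 1. Leptomeningeal fibroblast markers summed to 127 CPM in dura cells and 550 CPM in pia cells, and their part in these differences was not tested.

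Choroid plexus cells of myeloid 2 were lower than dura cells for 7 of 8 members, where 14.9% of 6922 genes measured were lower, and 0 were higher (7.93%). F13a1 differed most, at 31.2 CPM in choroid plexus and 584 CPM in dura, which is 18.7-fold lower (11.9 to 31.2). Cd163 was 5.97-fold lower (4.74 to 7.61), Mrc1 5.94-fold (5.07 to 7.0), Folr2 5.90-fold (4.99 to 7.03) and Lyve1 5.47-fold (4.09 to 7.5), so these 4 had overlapping intervals. Pf4 was 2.74-fold lower (2.57 to 2.93) and Stab1 2.34-fold lower (1.01 to 6.63), while Siglec1 was 1.87-fold lower (1.06 to 3.53), within 2-fold. Against pia, choroid plexus was lower for 5 of 8 members (9.66% of 5995 genes measured) and higher for 0 (5.7%), with F13a1 18.3-fold (11.7 to 30.6), Cd163 8.53-fold, Lyve1 7.06-fold, Mrc1 5.82-fold and Folr2 3.41-fold lower. Pf4 was 1.53-fold lower there (1.42 to 1.64), and Stab1 and Siglec1 could not be told apart from pia. These comparisons share the choroid plexus cells.

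Transcripts of choroid plexus epithelium summed to 5709 CPM in choroid plexus myeloid 2 cells, against 6.75 CPM in dura and 356 CPM in pia. Their part in the choroid plexus levels was not tested. T cells of the same library, which should lack these receptors, held between 0 and 10.9 CPM of each member in choroid plexus.

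The share of cells with a UMI, after each cell was thinned to 500 UMIs, held depth equal and gave the order dura, pia, choroid plexus and CNS for Pf4, Mrc1 and F13a1. For Mrc1 and F13a1 the dura and pia shares were close, and by CPM these 2 tissues could not be told apart. Pf4 was found in 84.1% of dura, 64.4% of pia and 47.7% of choroid plexus cells, against 2.98% of CNS cells. Mrc1 was found in 53.1% of dura, 50.3% of pia and 14.1% of choroid plexus cells, against 0.518% of CNS cells. F13a1 was found in 24.7% of dura, 22.6% of pia and 1.77% of choroid plexus cells, against 0.247% of CNS cells. T cells of the same libraries carried Mrc1 in 1.56% of dura, 1.61% of pia and 0% of choroid plexus cells, and Pf4 in 4.16% of dura, 2.15% of pia and 0.332% of choroid plexus cells. The lower limit of the myeloid 2 share lay above the upper limit of the T cell share for 7 of 8 members in dura, 6 in pia, 4 in choroid plexus and 1 (Lyve1) in CNS. Deep enough for this were 1458 of 1515 pia cells, 399 of 409 choroid plexus cells and all dura and CNS cells. Without thinning, Mrc1 had a UMI in 952 of 1033 dura, 1079 of 1515 pia and 115 of 409 choroid plexus cells, against 3 of 332 in CNS.

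At that depth at least 1 member was found in 96.7% of dura, 91.2% of pia and 61.4% of choroid plexus cells, against 13.9% of CNS cells. At least 3 members were found together in 52.5% of dura and 40.1% of pia cells, against 5.51% of choroid plexus cells and 0.301% of CNS cells. In dura T cells the share with at least 1 member was 7.80%.

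**Figure D2:**
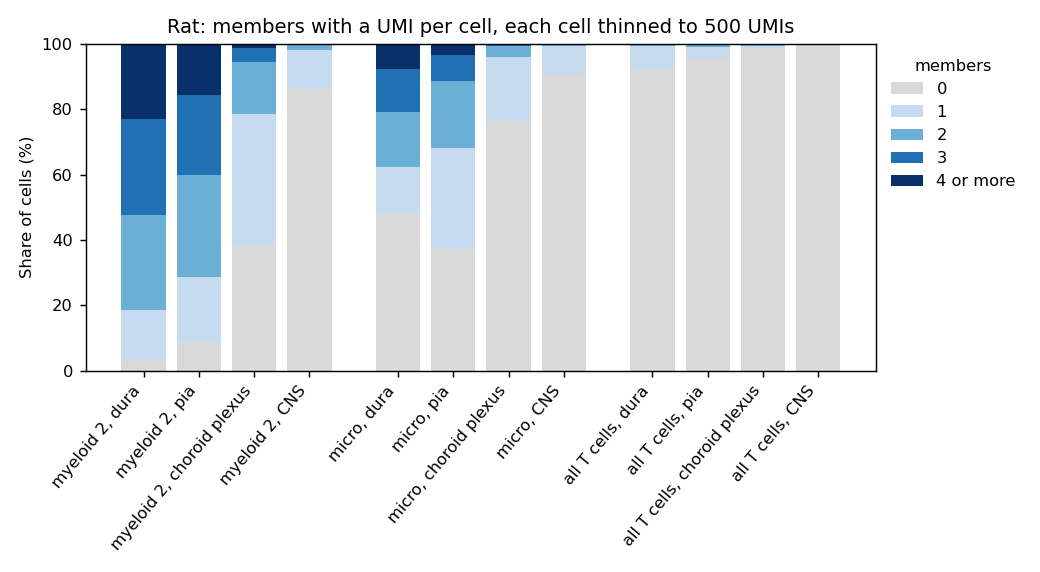
Stacked bars give the share of rat cells in percent (vertical axis) with 0, 1, 2, 3 or at least 4 members after thinning to 500 UMIs, for myeloid 2, micro and T cells of each tissue (horizontal axis). In myeloid 2, 52.5% of dura cells and 40.1% of pia cells have at least 3 members, against 5.51% of choroid plexus and 0.301% of CNS cells.

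Within dura and pia, pairs of the 6 members other than Stab1 and Siglec1 were found together in 0.943 to 1.45 times the share given by the product of their single shares. The highest was Cd163 with Lyve1 in dura, found together in 71 cells, 6.87% of the cells against a product of 4.73%. In choroid plexus Cd163 and Mrc1 met in 13 of 399 cells, 3.26% against a product of 1.22%, and Cd163 and Folr2 in 11, 2.76% against 0.974%.

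MHC class II transcripts, a readout outside the members, were lower in myeloid 2 cells that carried a member after thinning than in those that did not, for 7 of 7 members compared in dura (ratios 0.591 to 0.844) and 6 of 6 in pia (0.487 to 0.923). Lyve1 had the lowest ratio in both. In pia, summed class II stood at 12638 CPM in the 269 cells with Lyve1 and 25925 CPM in the 1189 cells without, a ratio of 0.487 (0.471 to 0.504). In dura the values were 10842 CPM with and 18360 CPM without, a ratio of 0.591 (0.573 to 0.609). F13a1 split pia cells in the same direction, at 14428 CPM with and 25894 CPM without (0.557), and dura cells less, at 15007 CPM with and 17777 CPM without (0.844). Cells with Mrc1 stood at 22397 CPM with and 24273 CPM without in pia (0.923), and at 15599 CPM with and 18736 CPM without in dura (0.833). Folr2 (0.677), Siglec1 (0.680) and Cd163 (0.715) lay between Lyve1 and Mrc1 in dura. In micro cells of dura the direction was opposite, with ratios of 2.16 for Mrc1, 2.28 for Folr2 and 2.43 for Pf4. Those dura cells also held B cell markers, described below, whose part was not tested. Micro cells of pia were mixed, with Mrc1 (1.91), Pf4 (1.51) and Folr2 (1.14) above 1 and Lyve1 (0.703) and F13a1 (0.785) below. In myeloid 2, median depth was 1035 UMIs with Lyve1 and 988 without in pia, and 2459.5 with and 2308 without in dura. Cells of 1 library are not replicates, so these ratios carry counting intervals only.

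Lyve1 was also found in microglia of the CNS. The authors' cluster named micro held 2974 CNS cells with a microglia marker sum of 14146 CPM, and Lyve1 had 1109 UMIs in 786 of these cells, 136 CPM (128 to 144). Most other members were at or near 0 there: Cd163 and Siglec1 had 0 UMIs, Mrc1 6, F13a1 3 and Stab1 11. Folr2 (45.0 CPM) and Pf4 (39.3 CPM) were low. CNS T cells had 0 Lyve1 UMIs, with an upper limit of 17.4 CPM. At 500 UMIs per cell 174 microglia carried Lyve1, and 4 of these also carried Folr2 and 6 Pf4.

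Cells assigned to micro in dura, pia and choroid plexus carried more of most members measured than those of CNS. Of the 120 CSF cells of micro, 8.33% had at least 1 member, against 9.58% in CNS. By CPM, Cd163, Folr2, Siglec1, F13a1 and Pf4 stood higher in these CSF cells than in CNS, and Mrc1, Lyve1 and Stab1 lower. At 10.6 CPM in CSF against 0.368 CPM in CNS for F13a1, and 5.31 CPM against 0 for Cd163, intervals excluded 1, on few UMIs. In dura (106 cells) 5 of 6 measured members were higher than in CNS (23.4% of 8013 genes measured, with 15.4% lower), with Mrc1 at 771 CPM in dura and 0.735 CPM in CNS, 1049-fold (471 to 2902). Folr2 was 11.2-fold (8.91 to 14.1) and Pf4 27.0-fold (22.6 to 32.2) higher. Cd163, with 36 UMIs in dura and 0 in CNS, was 500-fold higher (lower limit 386). F13a1 had 37 UMIs in dura against 3 in CNS, a ratio of 514 (163 to 2605). Lyve1 stood at 148 CPM in dura and 136 CPM in CNS and could not be told apart (1.09, 0.726 to 1.57). In pia (311 cells) 6 of 6 were higher (15.0%, with 18.8% lower), including Lyve1 at 498 CPM, 3.66-fold (3.05 to 4.36). In choroid plexus (162 cells) 3 of 4 were higher (13.6%), namely Mrc1 at 102-fold, Pf4 at 9.74-fold and Folr2 at 2.09-fold (1.33 to 3.13). Lyve1 was 3.62-fold lower in choroid plexus than in CNS (1.96 to 7.56; 24.9% of genes were lower).

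These border cells of micro held fewer microglia transcripts than those of the CNS. The marker sum was 1221 CPM in dura, 2411 CPM in pia and 3548 CPM in choroid plexus, against 14146 CPM in CNS, and Siglech and Olfml3 were at 0 in dura, pia and choroid plexus. B cell markers summed to 786 CPM in the dura cells of micro, with 5 of 5 genes detected. The part of either in the ratios was not tested.

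**Figure D3:**
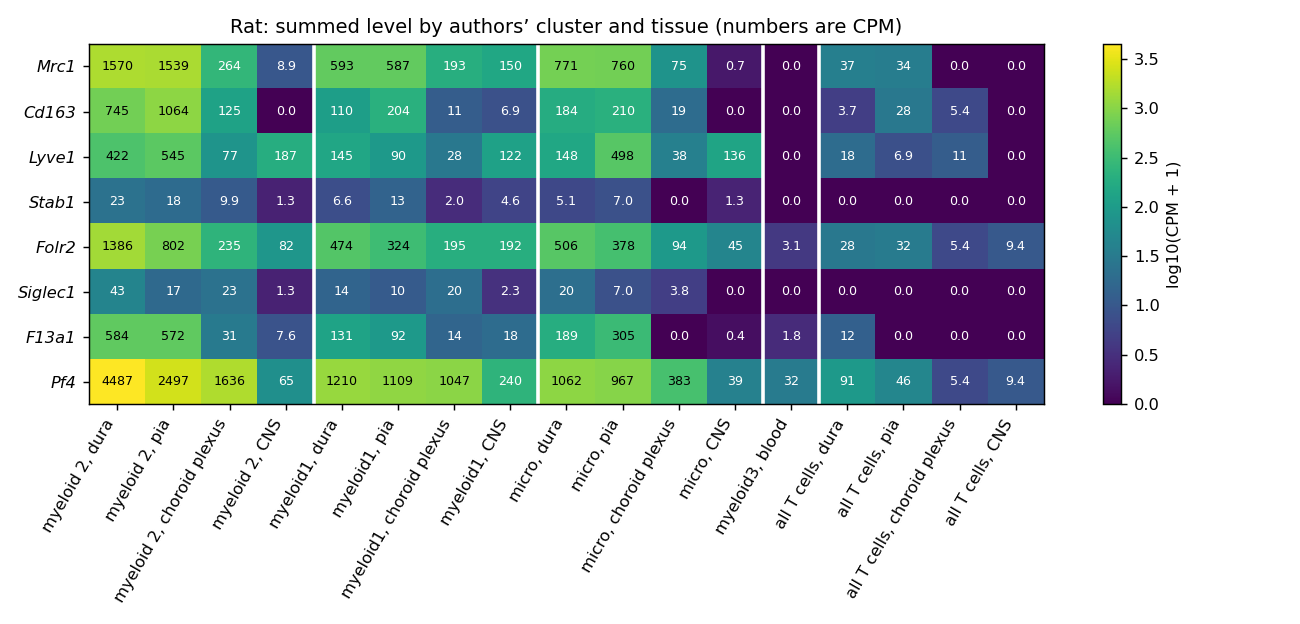
Heat map of member levels in rat, with genes down the page and cluster by tissue across it, coloured by CPM on a log scale with the value printed in each cell. Brighter colours are higher: Mrc1, Folr2 and Pf4 are bright in myeloid 2 of dura and pia, blood myeloid3 and T cells are dark for most members, and Lyve1 is the member with a level above 100 CPM in CNS myeloid 2 (187 CPM) and CNS micro (136 CPM) alike.

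The authors' cluster myeloid1 of rat, rich in MHC class II (63424 to 121110 CPM in dura, pia, choroid plexus and CNS), held all 8 members at lower levels than myeloid 2 in dura, pia and choroid plexus. In CNS most were higher in myeloid1 (82 cells) than in myeloid 2, with Pf4 at 240 CPM in myeloid1 and 64.6 CPM in myeloid 2, Folr2 at 192 CPM in myeloid1 and 82.3 CPM in myeloid 2, and Mrc1 at 150 CPM in myeloid1 and 8.86 CPM in myeloid 2. Differences between clusters are described and not tested, since the clusters were made from expression in these same data. Siglec1 of choroid plexus differed little, at 19.5 CPM (30 UMIs) in myeloid1 and 23.0 CPM (14 UMIs) in myeloid 2. Outside the CNS Mrc1 of myeloid1 stood at 593 CPM in dura (1238 cells), 587 CPM in pia (1365 cells) and 193 CPM in choroid plexus (992 cells). Pf4 stood at 1210 CPM in dura, 1109 CPM in pia and 1047 CPM in choroid plexus. Cd163 stood at 110 CPM in dura, 204 CPM in pia and 11.1 CPM in choroid plexus. Between dura and pia 0 of 8 members were higher (5.79%) and 1, Stab1, was lower, 2.03-fold (1.06 to 3.92; 4.24%). That call rests on 20 UMIs in dura and 22 in pia and was lost without cells that carry T or B cell markers (log2 -0.96). Cd163 was 1.86-fold lower in dura (1.59 to 2.17), which TMM scaling moved just past 2-fold (log2 -1.01).

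Choroid plexus cells of myeloid1 were again lower than dura cells, for 6 of 8 members (12.4% of 7959 genes measured). Cd163 was 9.94-fold (6.12 to 17.3), F13a1 9.11-fold (5.93 to 14.7), Lyve1 5.18-fold (3.78 to 7.26), Mrc1 3.07-fold (2.72 to 3.49) and Folr2 2.42-fold lower (2.14 to 2.75), and Stab1 had 3 UMIs in choroid plexus against 20 in dura. None of the 8 was higher past 2-fold (4.62%). Pf4 differed from the others, at 1047 CPM in choroid plexus and 1210 CPM in dura, a ratio of 0.865 (0.816 to 0.918). Siglec1 had 19.5 CPM in choroid plexus and 14.2 CPM in dura, with an interval of the ratio that includes 1 (0.835 to 2.25). Against pia 5 of 8 were lower (7.87%) and 0 higher (4.31%), with Cd163 18.5-fold lower (11.4 to 32.1). Siglec1 was 1.89-fold higher in choroid plexus than in pia (1.01 to 3.65), and TMM scaling put it just past 2-fold. Choroid plexus epithelium transcripts summed to 5011 CPM in these cells, against 17.5 CPM in dura and 265 CPM in pia.

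**Figure D4:**
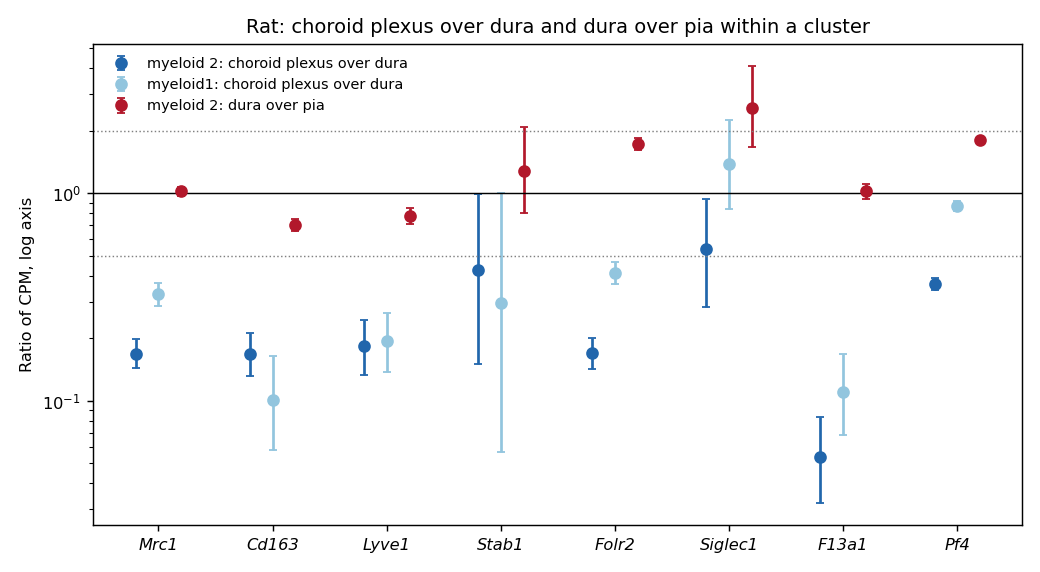
Ratios of member levels on a log axis for choroid plexus over dura in myeloid 2, choroid plexus over dura in myeloid1 and dura over pia in myeloid 2, with 95% counting intervals and dotted lines at 0.5 and 2. In both clusters F13a1 and Cd163 are low in choroid plexus, Pf4 is 0.865 in myeloid1, and the dura over pia ratios lie between 0.700 (Cd163) and 2.57 (Siglec1).

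Outside dura, pia and choroid plexus the levels depended on the cluster. Blood cells of cluster myeloid3 (853 cells) had 0 UMIs of Mrc1, Cd163, Lyve1, Stab1 and Siglec1, 4 of F13a1 and 7 of Folr2, with Pf4 at 31.9 CPM. CSF cells of myeloid1 (273 cells) had Lyve1 at 100 CPM, Folr2 at 98.5 CPM, Pf4 at 88.8 CPM, Mrc1 at 44.8 CPM, F13a1 at 40.4 CPM and 0 UMIs of Cd163. Lyve1 of myeloid1 could not be told apart between pia (90.1 CPM) and CSF, and it stood at 100 CPM in blood (93 cells), where Pf4 had 119 CPM. At least 2 UMIs of T or B cell markers were found in 62 of these 93 blood cells. The same held for 10 of 1365 cells of myeloid1 in pia and 23 of 273 in CSF. The part of this in the blood levels was not tested. In CNS cells of myeloid1, Mrc1 and Folr2 could not be told apart from choroid plexus (Mrc1 193 CPM in choroid plexus against 150 CPM in CNS, and Folr2 195 CPM in choroid plexus against 192 CPM in CNS). The 23 Lyve1 UMIs of the 120 CSF cells of micro lay in 9 cells, 15 of them in 1 cell.

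Other scavenger receptor genes and other border macrophage genes were read from 2 lists chosen with earlier results of these data known. In dura over CNS, 8 of 16 measured other scavenger genes were higher and 3 lower (median log2 1.01), and 15 of 22 other border genes were higher and 3 lower (median 2.19), beside an all-gene median of -0.22. Clec10a, a lectin for galactose-type sugars, stood at 1594 CPM in dura and 19.0 CPM in CNS, 83.9-fold (50.8 to 150). Colec12, a scavenger receptor with a collectin domain, had 409 CPM in dura and 1 UMI in CNS, a ratio of 323 (57.8 to 12770). The lectin gene Cd209f had 179 CPM in dura and 0 UMIs in CNS, 47.1-fold (lower limit 38.2). Ccl24, an eosinophil-attracting chemokine, was 131-fold higher and Ms4a7 103-fold higher in dura.

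In choroid plexus over dura, 3 of 16 other scavenger genes were higher and 8 lower (median log2 -1.02), and 2 of 22 other border genes were higher and 13 lower (median -1.12), beside -0.15 over all genes. Olr1 (LOX-1), a receptor for oxidised low-density lipoprotein, ran against the members at 223 CPM in choroid plexus and 8.34 CPM in dura, 26.8-fold higher. Ccl24 (35.7-fold), Fcna (15.3-fold), Colec12 (11.9-fold) and the endocytic adaptor Dab2 (11.8-fold) were lower in choroid plexus. Cd209f was at 0 there, 36.3-fold lower (lower limit 29.4). In choroid plexus over CNS, Clec7a, the receptor for fungal beta-glucans, had 471 CPM in choroid plexus and 5.06 CPM in CNS, 93.1-fold higher (36.0 to 344).

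In mouse the members lie at Mrc1 chr2:14229392-14332057, Cd163 chr6:124304656-124330527, Lyve1 chr7:110850607-110863239, Stab1 chr14:31139013-31168641, Folr2 chr7:101839988-101857194, Siglec1 chr2:131069220-131086765, F13a1 chr13:36867178-37050244, Pf4 chr5:90772435-90773383 and Cbr2 chr11:120729489-120732114 (GRCm38). All are protein-coding genes whose IDs matched the deposited table. Stab1 overlaps Nt5dc2 on the opposite strand, and Folr2 and F13a1 overlap antisense genes. Mrc1 contains the microRNA gene Mir511 on the same strand. The part of these overlaps in the counts was not tested.

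In mouse dura the authors' cluster myeloid1 (1000 EAE and 227 naive cells) was compared between EAE and naive mice. In EAE, 4 of 9 members were higher, namely F13a1, Stab1, Siglec1 and Lyve1, where 20.9% of 10320 genes measured were higher, and 0 were lower (4.59%). The share of members is above that of all genes, but the median log2 ratio of all genes was itself 0.40 and that of the members 0.52. With TMM scaling, which lowers log2 ratios by 0.27, 1 member (Lyve1) was higher and 1 (Pf4) lower.

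F13a1 stood at 179 CPM in EAE (171 to 187) and 74.3 CPM in naive dura (62.1 to 88.1), 2.41-fold higher (2.02 to 2.89). Stab1 stood at 92.7 CPM in EAE (87.3 to 98.3) and 40.5 CPM in naive dura (31.7 to 51.0), 2.29-fold higher (1.80 to 2.95). Siglec1 had 137 UMIs in EAE and 10 in naive dura, 2.01-fold (1.06 to 4.29), and Lyve1 had 98 UMIs in EAE and 2 in naive dura, a ratio of 7.19 (1.94 to 60.2). With TMM scaling the log2 ratios of F13a1 (0.999), Stab1 (0.92) and Siglec1 (0.74) were all under the 2-fold line. With macrophage and monocyte clusters pooled, F13a1 came to a log2 ratio of 0.53.

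Mrc1 and Cd163 were within 2-fold, with Mrc1 at 229 CPM in EAE and 181 CPM in naive dura (1.27, 1.13 to 1.43) and Cd163 at 28.2 CPM in EAE and 19.7 CPM in naive dura (1.43, 1.01 to 2.09). Folr2 had 19.0 CPM in EAE and 20.3 CPM in naive dura (0.938, 0.658 to 1.37). Cbr2, a carbonyl reductase named beside Mrc1 in mouse tissue macrophages, had 67.3 CPM in EAE and 57.9 CPM in naive dura (1.16, 0.946 to 1.44). The intervals of Folr2 and Cbr2 include 1. Relative to the all-gene median of 0.40, the log2 ratios of Mrc1 (0.34), Cbr2 (0.22) and Folr2 (-0.09) were lower than that of the middle gene.

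Pf4 went the other way, at 475 CPM in EAE (463 to 488) and 895 CPM in naive dura (851 to 940), 1.88-fold lower (1.78 to 1.99). It passed 2-fold with TMM scaling (log2 -1.18), with each cell's CPM averaged (-1.30) and with macrophage and monocyte clusters pooled (-1.28). Platelet markers were 0.743 CPM in EAE and 0.563 CPM in naive cells, with Gp1ba, Gp1bb and Treml1 at 0 in both.

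Neutrophil transcripts moved with these comparisons. At least 2 UMIs of the neutrophil list were found in 1000 of 1000 EAE cells and 72 of 227 naive cells of myeloid1, with sums of 6556 CPM in EAE and 145 CPM in naive dura and Ly6g at 0 in naive. Monocyte markers summed to 3445 CPM in EAE and 636 CPM in naive dura, and dissociation-response genes to 4236 CPM in EAE and 7919 CPM in naive dura. Their part in the member ratios was not tested.

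**Figure D5:**
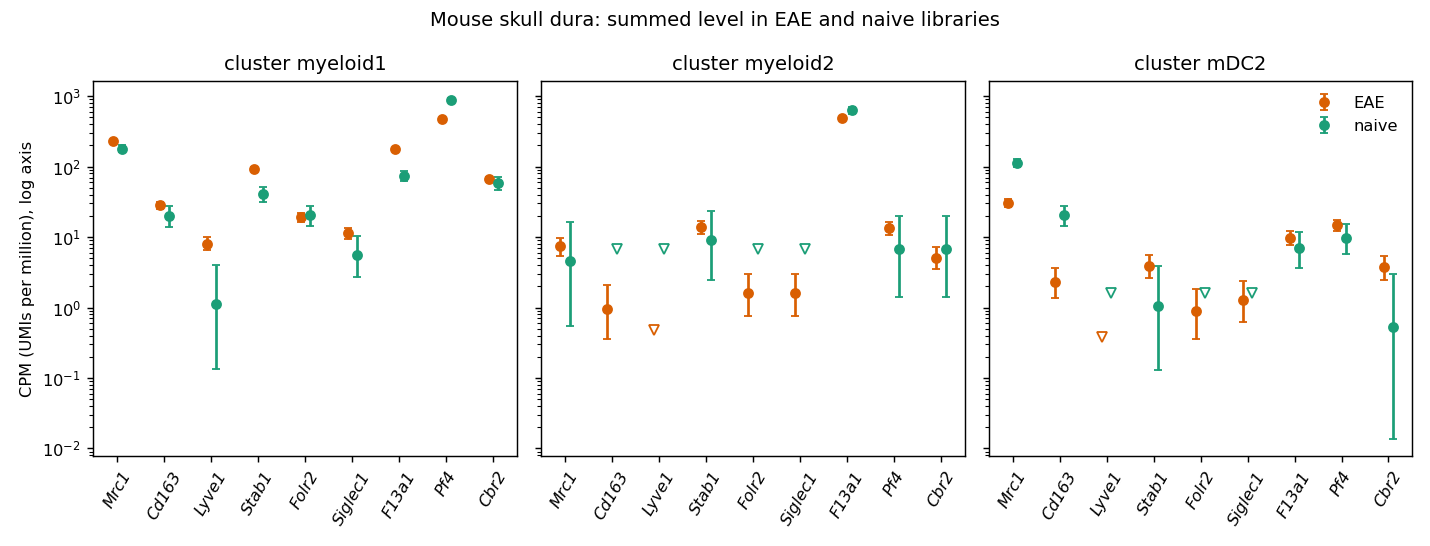
Member levels in mouse dura in CPM on a log axis for clusters myeloid1, myeloid2 and mDC2, with EAE (orange) left of naive (green) and 95% counting intervals, and open triangles for libraries at 0 drawn at 3 UMIs. In myeloid1 Pf4 is lower in EAE (475 CPM) than in naive dura (895 CPM), in myeloid2 F13a1 stands above the other members (492 CPM in EAE and 632 CPM in naive dura), and in mDC2 Mrc1 is lower in EAE (30.8 CPM) than in naive dura (113 CPM).

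In mouse myeloid1, 30 of 36 pairs of members in EAE and 22 of 36 in naive dura were found in the same cells more often than the product of their shares, and 6 in EAE and 14 in naive dura less often. Each of those 6 pairs in EAE held Siglec1 or Lyve1, which were found in 9 cells each. In myeloid1 of EAE thinned to 1000 UMIs, Mrc1 and Pf4 were found together in 90 of 1000 cells, 9.0% against a product of single shares of 3.19%. Cd163 and Stab1 were found together in 13 cells, 1.30% against 0.204%. In naive dura Stab1 and Pf4 were found together in 14 of 212 cells, 6.60% against 2.17%. At least 1 of the 9 members was found in 37.7% of EAE and 40.6% of naive cells. T cells carried at least 1 in 3.49% of EAE and 0.903% of naive cells.

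F13a1 had a second place in mouse. In the authors' cluster myeloid2 (481 EAE and 49 naive cells) it stood at 492 CPM in EAE and 632 CPM in naive dura (0.779, 0.688 to 0.884), while the other 8 members were at 13.9 CPM or less in both. Of the 5 members measured 0 were higher (13.1% of all genes measured) and 0 lower (8.60%). With TMM scaling Pf4, which had 3 UMIs in naive cells, passed 2-fold.

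The dendritic cell clusters differed from myeloid1. In mDC2 (563 EAE and 176 naive cells) Mrc1 stood at 30.8 CPM in EAE and 113 CPM in naive dura, 3.65-fold lower (3.02 to 4.41), and Cd163 at 2.30 CPM in EAE and 20.3 CPM in naive dura, 8.80-fold lower (4.90 to 16.4). These 2 of 6 measured members were lower (5.32% of 9386 genes measured) although the all-gene median was 0.55. Stab1 (ratio 3.60, 0.913 to 31.1) and Cbr2 (6.96, 1.15 to 284) were higher in EAE (2 of 6, 30.0% of genes measured), Stab1 on 2 UMIs and Cbr2 on 1 UMI in naive cells. In the same cluster 9 of 17 other scavenger genes were lower and 0 higher (median log2 -1.52), among them the lectins Cd209d (7.58-fold lower) and Cd209a (6.33-fold lower). In mDC1, 3 of 3 measured members were higher in EAE (19.0%, with 3.37% lower). Mrc1 was 6.08-fold (1.53 to 52.7) and Pf4 13.9-fold (3.69 to 117) higher. F13a1, with 0 UMIs in naive cells, was 3.33-fold higher (lower limit 2.50).

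T cells of the same libraries held more of the members in EAE than in naive dura: Pf4 21.3 CPM in EAE and 8.24 CPM in naive, Mrc1 5.90 CPM in EAE and 0.970 CPM in naive, and F13a1 7.99 CPM in EAE and 0.728 CPM in naive. With these T cell levels subtracted, what was left of Mrc1 and Pf4 in naive mDC1 was under 3 UMIs, so that side was set to 3 UMIs. Their log2 ratios came to 0.87 for Mrc1 and 0.30 for Pf4, which do not decide the call, and F13a1 could not be measured. In EAE mDC2, Stab1 (3.84 CPM) and Cbr2 (3.71 CPM) stood below T cells of EAE (4.38 CPM of Stab1 and 4.76 CPM of Cbr2), while Mrc1 and Cd163 were still past 2-fold lower. F13a1 of mDC2, at 9.72 CPM in EAE and 6.93 CPM in naive dura, came to a log2 ratio of -1.84 by that subtraction. In pDC, F13a1, with 0 UMIs in naive cells, was 3.36-fold higher in EAE (lower limit 2.60, 36 UMIs in 11 of 126 cells). Of genes measured 11.2% were higher and 6.59% lower. The F13a1 ratio could not be measured without cells called doublets. In myeloid3 Pf4, the member measured, was within 2-fold (10.9 CPM in EAE and 5.97 CPM in naive; 22.7% of genes higher and 6.25% lower). In granulo1, 0 of 3 measured members were higher (6.32%) or lower (28.5%). At least 2 UMIs of the neutrophil list were found in 665 of 665 EAE cells and 39 of 80 naive cells of granulo1. The part of this in its ratios was not tested. In granulo2 Pf4 had 18.9 CPM in EAE and 41.5 CPM in naive dura, 2.20-fold lower (0.836 to 4.94; 18.7% of genes lower and 14.1% higher).

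Genes whose pattern was most like the members' mean were found by Pearson's r over sums of all clusters by group, on log2(CPM + 10). Over 51 rat sums and 8509 genes these were Igfbp3 (r = 0.92), Dab2, Cxcl2, Rarres1, Scarf1, Cd14, Clec4a and 1700025F22Rik (0.88). Over 34 mouse sums and 9652 genes they included C3ar1 (0.94), Abcc3, Mertk, Sash1, Adgre1, Trem2 and Ccl12 (0.89). The sums share libraries and depth, and r is a description. Among the 7 mouse members with at least 200 UMIs, the lowest r with the mean of all members was 0.64 for F13a1, whose r with Lyve1 was 0.16, and the rat pairs ran between 0.56 (Lyve1 with Siglec1) and 0.91 (Mrc1 with Pf4).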

How the data were processed

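The deposited tables hold raw UMI counts per gene and cell barcode, with no normalization, and the authors' cluster with its tissue (rat) or condition (mouse) for 21187 of 26301 rat and 7355 of 8126 mouse barcodes. The authors made the counts with Cell Ranger 3.1.0 on Rnor_6.0 and mm10, per the submitters' processing notes, while for rat the matrix itself names version 3.0.2, per the file headers. The rat libraries were of version 2 chemistry and the mouse libraries of version 3, per the labels' protocols. Barcodes without a cluster were left out.

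Groups were taken from sample titles, because the condition field names EAE even for unimmunized mice. Counts were summed over the cells of each cluster and group with at least 20 cells and scaled to CPM. Levels carry exact Poisson and ratios exact conditional binomial 95% intervals. Shares of cells are expected values after thinning to 500 UMIs (rat) or 1000 UMIs (mouse), with Clopper-Pearson intervals, and members per cell come from 1 seeded draw at that depth, by which cells were also split for the class II sums over all their UMIs. T cells of the same library served as background. The members and lists were chosen with earlier results of these data known. Named are the members, at most 3 genes of each other list with the largest ratios at 100 or more UMIs, and the 8 genes most like the members, of which 1 in mouse is not reported here. Doublets were kept, and scrublet in scanpy 1.11.5, used as an alternative, marked 0.111% to 2.27% of cells per library. TMM factors from edgeR 4.0.16 in R 4.3.3 were a scaling alternative. The ratio step was tested on simulated counts. Other steps used Python 3.11.15, numpy 2.4.6, pandas 2.3.3, scipy 1.17.1 and matplotlib 3.10.9. Mouse positions are from GENCODE on GRCm38. Receptor contig tables were not used here.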

Additional observations from a re-analysis of the deposited data

Results flagged for a closer look

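Mrc1 went in opposite directions with EAE in 2 mouse dendritic cell clusters, with a ratio of EAE over naive of 6.08 in mDC1 (28 UMIs in EAE and 2 in naive) and 0.274 in mDC2 (241 UMIs in EAE and 211 in naive). The difference between the clusters was not tested. T cells of the same libraries also held more Mrc1 in EAE than in naive dura. With T cell levels subtracted, the log2 ratio in mDC1 was 0.87, under the 2-fold line. What was left in naive mDC1 cells was then too low to measure, so the direction in mDC1 is undecided. Mrc1 in mDC2 stayed past 2-fold lower by that subtraction.

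The other flagged values lie in B cell and NK cell clusters that no comparison used, where a member exceeded its level in T cells of the same library. In EAE dura, cluster BcProg had F13a1 at 613 CPM (1093 UMIs in 65 of 74 cells), against 7.99 CPM in T cells. In naive dura, BcProg had F13a1 at 55.9 CPM (26 UMIs in 4 of 92 cells), against 0.728 CPM in T cells. BcProg also held neutrophil markers at 5847 CPM in EAE and 174 CPM in naive dura, whose part was not tested.

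In rat pia, cluster Bc2 (26 cells) had Lyve1 at 756 CPM (29 UMIs in 8 cells) and Mrc1 at 574 CPM (22 UMIs in 12 cells), against 6.90 CPM of Lyve1 and 34.5 CPM of Mrc1 in T cells. NK cells of dura had Pf4 at 202 CPM and Folr2 at 74.6 CPM, against 91.3 CPM of Pf4 and 27.7 CPM of Folr2 in T cells. NK cells of choroid plexus had Pf4 at 64.3 CPM, against 5.44 CPM in T cells, and Bc1 cells of blood had Pf4 at 27.9 CPM, against 15.0 CPM in T cells. The mouse EAE cluster Bc had Pf4 at 81.6 CPM, from 20 UMIs in 3 of 25 cells, against 21.3 CPM in T cells.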

How the results depend on the processing

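No paired analysis was possible because each group was 1 library, so that the groups compared share only 1 replicate number, and leaving out a replicate was likewise impossible. The counts compared were members past 2-fold and, for another thinning depth, members whose share of cells exceeded that in T cells. They equalled the reported count or were within 1.5 times it in 280 comparisons of a count with an alternative, and moved further in 26. Equal counts include those where no member was called. Ratios of single members kept their side in 814, crossed 2-fold in 11 and 18, and turned round in 3.

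With TMM factors the number of lower members was 0 in myeloid 2 of choroid plexus over CNS (1 reported), 2 in myeloid1 of dura over pia (1 reported), 1 in mouse myeloid1 (0 reported) and 0 in granulo2 (1 reported). The number of higher members was 1 in myeloid1 of choroid plexus over pia, 1 in mouse myeloid1 (4 reported), 1 in myeloid2 and 2 in granulo1 (0 reported in the last 2). These factors shifted log2 ratios over CNS in myeloid 2 by 0.30 to 0.39. With each cell's CPM averaged, mouse myeloid1 had 2 higher and 1 lower, myeloid3 and granulo1 each 1 lower, and pDC 0 higher (1 reported). With macrophage and monocyte clusters pooled, myeloid1 had 1 higher and 1 lower. With T cell levels subtracted, 0 were called higher in mDC1 (3 reported), where what was left in naive cells was under 3 UMIs. By the same subtraction 0 were called higher in mDC2 (2 reported), where Stab1 and Cbr2 of EAE lay below their levels in T cells. Without cells that carry T or B cell markers, 0 were lower in rat myeloid1 of dura over pia, 0 higher in pDC and 1 higher in granulo1. Without doublets pDC had 0 higher. Without naive cells shallower than any EAE cell, granulo1 had 1 higher and 1 lower. Without the minimum of 20 UMIs, 5 were higher in micro of choroid plexus over CNS (3 reported), 2 higher in pDC and 5 lower in granulo2.

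Turned round were Pf4 in myeloid3 (log2 -1.16, each cell's CPM averaged; 0.87 reported), F13a1 in mDC2 (-1.84, T cell levels subtracted; 0.49 reported) and F13a1 in granulo1 (-2.06, each cell's CPM averaged; 0.83 reported). The cause was not tested. Leaving out cells with microglia markers in rat or neutrophil markers in mouse was not run as an alternative, since 1 CNS cell and 0 EAE cells would remain. Depth limits Stab1 and Siglec1 in rat, with 1 UMI each in CNS myeloid 2, and Lyve1 in mouse, with 2 UMIs in naive myeloid1.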

Other observations

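Rat cells of cluster myeloid3, which is mostly a blood and CSF cluster, had more Pf4 and Mrc1 in choroid plexus, pia and dura than in blood and CSF. Pf4 stood at 500 CPM in choroid plexus (140 cells), 361 CPM in pia (83 cells) and 160 CPM in dura (119 cells), against 31.9 CPM in blood (853 cells) and 1.30 CPM in CSF (491 cells). Mrc1 stood at 127 CPM in choroid plexus, 391 CPM in pia and 74.1 CPM in dura, against 1.30 CPM in CSF and 0 UMIs in blood. Mrc1, a lectin of border macrophages, was found in 24 of 140 choroid plexus, 24 of 83 pia and 10 of 119 dura cells of this cluster. In T cells Mrc1 stood at 36.9 CPM in dura and 34.5 CPM in pia, and Pf4 at 91.3 CPM in dura, 46.0 CPM in pia and 5.44 CPM in choroid plexus, so the dura level of Pf4 in myeloid3 was less than 2-fold above that in T cells.

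The 36 rat dura cells of cluster granulo held Mrc1 at 122 CPM, from 10 UMIs in 3 cells. The conventional dendritic cluster mDC1 had Mrc1 at 35.2 CPM in dura (104 cells) and 48.2 CPM in choroid plexus (69 cells), the first of these close to the level in dura T cells (36.9 CPM).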
